A study of Mus musculus with 16 samples.

Results

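A set of 9491 accessible regions appeared in fetal male germ cells of the mouse between the embryonic stages E13.5 and E16.5, named by days of gestation, and was still listed as accessible 3 days after birth. They are called kept regions here. They were chosen from peak lists of ATAC-seq, which tags open chromatin with a transposase and sequences the tagged DNA. A kept region is a peak of the E16.5 *Morc1* heterozygous list that overlapped, by at least 1 bp, a peak of the E16.5 knockout list, of the P0 (day of birth) list and of the P3 (postnatal day 3) list, and that overlapped no peak of either E13.5 list. The 9491 regions were 17.7% of the 53687 peaks of the E16.5 heterozygous list. They made up 16.6% of the 57117 peaks of the E16.5 knockout list, 14.1% of the 67258 peaks at P0 and 21.2% of the 44760 peaks at P3.

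The cells were testis germ cells of animals carrying the Mvh-Venus reporter, a fluorescent marker of germ cells, and were either *Morc1* (+/-) or *Morc1* (-/-) at E13.5, E16.5, P0 and P3. *Morc1* encodes an ATPase that takes part in silencing transposons in male germ cells, and the heterozygous controls carry 1 disrupted copy. The 16 samples form 8 groups of 2, and 1 peak list stands for each group, so no value below has a spread between replicate samples and no test across samples was possible. The P0 lists of the 2 genotypes were identical, as were the P3 lists, so a kept region was seen in both genotypes at E16.5 only, by the rule. The lists hold positions without heights: a region that opened in more cells and one that opened further in the same cells cannot be told apart, and a region missing from a list may have fallen short of the calling threshold.

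Between E13.5 and E16.5, male germ cells of the fetal testis stop dividing and become gonocytes, also called prospermatogonia. While arrested they rebuild DNA methylation over a genome that had been stripped of it, and they silence transposons with the help of small RNAs bound by PIWI proteins (piRNAs). Shortly after birth they re-enter division and become spermatogonia. A promoter, the stretch of DNA around a transcription start, is usually accessible whether or not the gene is strongly transcribed when it is rich in CpG, the dinucleotide that DNA methylation acts on, whereas accessibility of CpG-poor promoters and of distal regulatory regions tends to differ between cell types and stages.

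Most kept regions lay far from promoters, but a small group held transcription starts, and the sequences of these promoters can be shown. The 5 promoters below had their start inside a kept region and inside the matching peaks of the E16.5 knockout, P0 and P3 lists. *Piwil1* (a PIWI protein of the germ line), *Gtsf1* (a zinc finger protein that works with PIWI proteins) and *Sohlh1* (a transcription factor of spermatogonial differentiation) were the 3 genes of the germ-cell lists described further on whose starts were kept. *Rhox10* (an X-linked homeobox gene of the male germ line) and *Klf17* (a Krüppel-like transcription factor) were added after their values were seen. *Ddx4*, the vasa homologue from which the Mvh reporter takes its name, is shown for contrast because its promoter held a peak in all 6 distinct lists. Each sequence is the RefSeq promoter (GRCm38.p6) from 250 bases before to 50 bases after the start, read 5′ to 3′ on the strand of the gene, with every CpG in capitals.
Piwil1 promoter, chr5:128735996-128736295, plus strand: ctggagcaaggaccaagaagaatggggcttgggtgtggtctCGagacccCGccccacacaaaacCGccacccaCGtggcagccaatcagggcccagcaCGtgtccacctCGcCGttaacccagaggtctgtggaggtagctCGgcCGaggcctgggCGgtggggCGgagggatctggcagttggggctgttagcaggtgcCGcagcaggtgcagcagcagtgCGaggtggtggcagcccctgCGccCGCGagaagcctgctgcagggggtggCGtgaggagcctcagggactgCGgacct
Gtsf1 promoter, chr15:103430378-103430677, minus strand: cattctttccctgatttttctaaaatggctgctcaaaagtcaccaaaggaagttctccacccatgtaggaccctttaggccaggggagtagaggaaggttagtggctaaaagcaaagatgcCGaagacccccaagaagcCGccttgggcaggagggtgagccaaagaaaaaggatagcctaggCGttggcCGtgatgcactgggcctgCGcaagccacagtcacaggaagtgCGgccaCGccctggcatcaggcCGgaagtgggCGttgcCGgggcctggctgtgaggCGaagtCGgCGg
Sohlh1 promoter, chr2:25847199-25847498, minus strand: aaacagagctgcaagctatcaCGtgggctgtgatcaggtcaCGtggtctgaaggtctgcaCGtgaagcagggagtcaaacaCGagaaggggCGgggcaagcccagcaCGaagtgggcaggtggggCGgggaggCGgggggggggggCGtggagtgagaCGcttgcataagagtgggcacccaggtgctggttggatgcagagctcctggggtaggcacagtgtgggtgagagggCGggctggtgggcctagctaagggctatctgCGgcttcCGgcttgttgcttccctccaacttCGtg
Rhox10 promoter, chrX:38066225-38066524, plus strand: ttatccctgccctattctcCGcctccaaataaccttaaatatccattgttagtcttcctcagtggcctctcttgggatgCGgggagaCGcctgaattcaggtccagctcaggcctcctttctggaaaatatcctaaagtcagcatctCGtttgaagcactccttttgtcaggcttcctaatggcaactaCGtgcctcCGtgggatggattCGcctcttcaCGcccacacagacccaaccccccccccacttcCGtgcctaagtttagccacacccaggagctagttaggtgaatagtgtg
Klf17 promoter, chr4:117765617-117765916, minus strand: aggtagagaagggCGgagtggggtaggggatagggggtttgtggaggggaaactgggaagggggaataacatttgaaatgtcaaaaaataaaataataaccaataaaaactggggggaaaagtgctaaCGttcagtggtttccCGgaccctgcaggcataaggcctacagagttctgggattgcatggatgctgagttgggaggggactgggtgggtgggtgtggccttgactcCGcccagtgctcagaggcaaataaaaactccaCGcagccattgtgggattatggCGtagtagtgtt
Ddx4 promoter, chr13:112652261-112652560, minus strand: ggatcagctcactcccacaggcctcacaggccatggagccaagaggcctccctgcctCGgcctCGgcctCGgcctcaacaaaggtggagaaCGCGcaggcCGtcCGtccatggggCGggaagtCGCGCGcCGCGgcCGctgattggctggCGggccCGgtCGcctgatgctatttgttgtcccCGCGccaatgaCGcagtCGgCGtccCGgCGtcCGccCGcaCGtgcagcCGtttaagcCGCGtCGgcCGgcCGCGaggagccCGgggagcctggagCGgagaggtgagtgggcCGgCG

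In *Piwil1*, the E16.5 heterozygous peak covered chr5:128735814-128736314 and the start was at position 128736246 of the plus strand. The peaks at the same place in the E16.5 knockout, P0 and P3 lists began at 128735774, 128735894 and 128735949. Those of the *Gtsf1* promoter, at chr15:103430161-103430661 in E16.5 heterozygous cells with the start at 103430427, began at 103430218, 103430180 and 103430208. At *Sohlh1* the E16.5 heterozygous peak covered chr2:25847121-25847621, and the other 3 peaks began at 25847059, 25847127 and 25847171. The X-linked *Rhox10* peak covered chrX:38066300-38066800 and the *Klf17* peak chr4:117765337-117765837. For all 5 genes the peaks of the 4 lists therefore covered the start itself, although their ends were shifted between lists. The nearest E13.5 peak lay 22.8 kb away at *Gtsf1*, 17.4 kb at *Rhox10*, 5.04 kb at *Klf17*, 2.85 kb at *Sohlh1* and 1.38 kb at *Piwil1*.

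The 5 promoters differed in CpG content. *Piwil1* had 18 CpGs in 300 bases, *Sohlh1* 14, *Gtsf1* 13, *Rhox10* 9 and *Klf17* 6, against 38 in *Ddx4*. The CpG observed/expected ratio, which divides the number of CpGs by the number that the C and G content would give, was 0.535, 0.525, 0.531, 0.469 and 0.379 in the same order, and 0.978 in *Ddx4*. All 5 thus lay below *Ddx4*. Over all RefSeq promoters the median ratio was 0.384, just above that of *Klf17*.

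The germ-cell origin was checked against marker genes. Of 7 germ-cell markers, 5 or 6 had a peak within 1000 bp of an outer end of the gene in each of the 6 lists, *Ddx4*, *Dazl*, *Dnd1*, *Mael* and *Kit* in all of them. Of 22 markers of testis somatic cells, 7 or 8 had such a peak in each list. Over all protein-coding genes the share with such a peak was 58.3% to 63.0% across the lists. Of the markers with a promoter sequence, 3 or 4 of 6 germ-cell markers and 2 or 3 of 13 somatic markers had a promoter covered by a peak in each list, against 54.4% to 56.4% of all protein-coding genes with such a sequence. *Cldn11* of Sertoli cells and *Cyp11a1* of Leydig cells were covered in all lists, *Acta2* of smooth muscle at P0 and P3 only, and *Tcf21* in E13.5 knockout cells only. The promoters of *Insl3*, *Hsd3b1*, *Fshr*, *Inha*, *Ptprc* and *Cd68* were covered in none, and neither was that of the germ-cell marker *Dazl*. The *Nanos3* promoter was covered in E13.5 knockout cells only. That of *Pou5f1* was covered at neither E13.5 nor P3, though at the stages between them. Among somatic markers, *Dhh* and *Myh11* had a peak within 1000 bp of an outer end in all 6 lists. *Wt1* and *Tcf21* had one in all but the P3 list. *Fshr* had one in every list after E13.5, and *Inha* in the E13.5 and P3 lists. The *Acta2* promoter was thus listed at P0 and P3, stages by which kept regions were chosen, and the part of somatic cells in the kept set was not tested.

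Among the 28592 E16.5 heterozygous peaks absent at E13.5 (53.3% of the list), the kept pattern was the most frequent. A further 6731 peaks (12.5% of the list) overlapped the E16.5 knockout and P0 lists and no P3 peak, and are called transient here. Only 444 peaks overlapped the E16.5 knockout and P3 lists and no P0 peak, and 1092 were found at P0 and P3 but not in the E16.5 knockout list. The 17186 peaks (32.0%) found in all 6 lists are called constant. Transient and constant peaks are the 2 sets against which the kept regions are set below, with 95% Wilson intervals that cover counting error over peaks only.

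A few regions lay near the limits of the rule. In 99 kept regions (1.04%) the smallest overlap with a required peak was 50 bp or less, the lowest being 1 bp, whereas the median was 410 bp. An E13.5 peak ended within 50 bp of 29 kept regions and within 500 bp of 167. On the other side, 34 peaks were left out for an E13.5 overlap of at most 50 bp, and 23 transient peaks had a P3 peak within 50 bp. The required overlap itself limits how far the centres of kept and constant regions can lie from those of peaks in the other lists. The median distance from the E16.5 heterozygous centre was 36 bp in the E16.5 knockout list, 42 bp at P0 and 53 bp at P3, against 27, 34 and 36 bp for constant peaks.

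The kept regions lay mainly between genes. In all, 6168 of 9491 (64.99%, interval 64.0 to 65.9) fell outside every annotated gene and its ends, 2230 (23.5%) inside a gene away from its ends, and 1093 (11.5%, interval 10.9 to 12.2) at a gene end, meaning within 1000 bp of an outer end. In the whole E16.5 heterozygous list 29.6% lay at gene ends and 43.3% between genes. Constant peaks had the opposite layout to the kept regions, with 63.96% at gene ends and 15.9% between genes. Transient peaks resembled the kept regions, with 9.48% at gene ends (interval 8.80 to 10.2) and 66.1% between genes (interval 65.0 to 67.3). The share at gene ends was therefore slightly higher among kept than among transient regions, and the shares between genes had overlapping intervals. With protein-coding genes only, 4.11% of the kept regions lay at a gene end and 77.3% between genes, against 3.64% and 76.5% of the transient peaks. No intervals are given for these shares, so whether the difference at gene ends exceeds counting error under this setting is not shown.

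**Figure D1:**
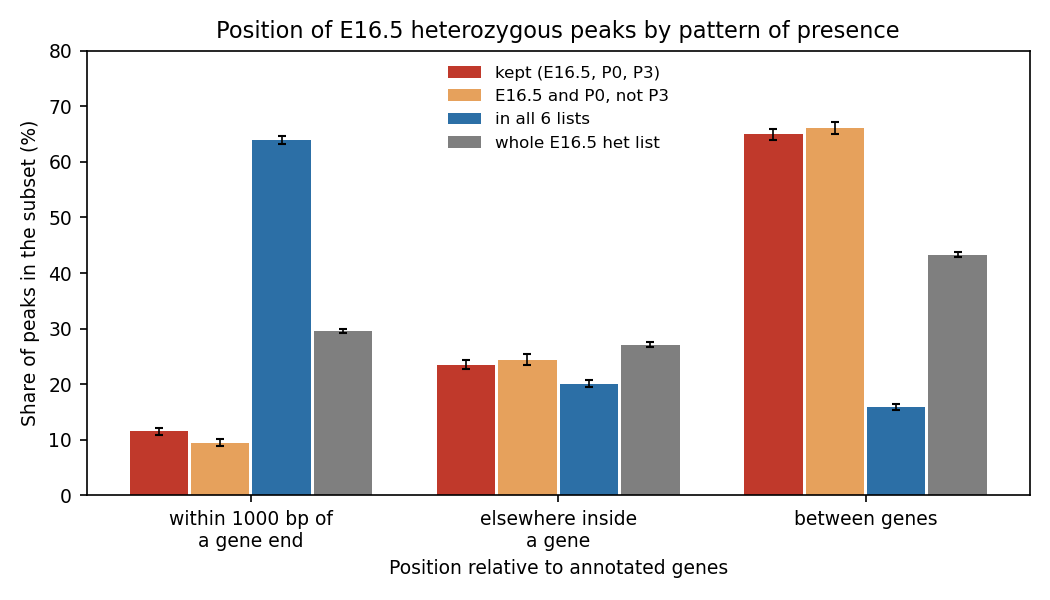
Share of peaks (%) at a gene end, inside a gene or between genes for the kept regions, the transient peaks, the peaks of all 6 lists and the whole E16.5 heterozygous list. Bars are shares and error bars 95% Wilson intervals over peaks. Kept and transient regions lie mostly between genes (64.99% and 66.1%), and constant peaks mostly at gene ends (63.96%).

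Distances to the nearest RefSeq transcription start gave the same layout. The median distance was 83.3 kb for kept regions (quartiles 20.95 and 300.5 kb, 9298 regions on chromosomes with promoter entries), 98.5 kb for transient peaks, 0.30 kb for constant peaks and 28.3 kb for the whole list. The table of starts holds 17492 of 21900 protein-coding genes and none on chromosome 18, so a distance is too long where the nearest start has no entry. A start lay within 250 bp of the centre of 282 kept regions (3.03%). More than 100 kb separated 46.3% of kept regions (interval 45.3 to 47.3) from any listed start, against 49.6% of transient and 9.19% of constant peaks. Kept regions thus stood a little closer to starts than transient peaks and far from the constant peaks. The 1 Mb around a kept region held a median of 2 protein-coding genes, against 12 around a constant peak, and for 2464 kept regions (25.96%) it held none.

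**Figure D2:**
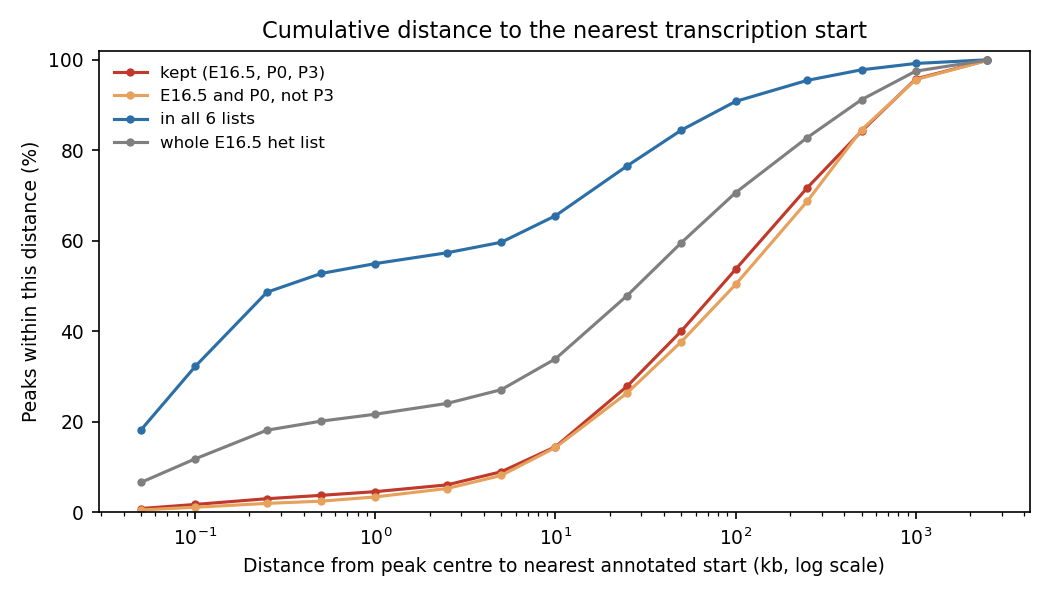
Cumulative share of peaks (%) against the distance from the peak centre to the nearest RefSeq transcription start, on a log axis. Of the kept regions, 14.5% had a start within 10 kb and 53.7% within 100 kb, and their curve runs beside that of the transient peaks and well below that of the constant peaks.

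Kept regions were scattered and not gathered in dense blocks. Another kept region lay within 10 kb of 705 of them (7.43%, interval 6.92 to 7.97). The share was 7.59% among transient and 13.7% among constant peaks, sets of other sizes. In the whole E16.5 heterozygous list, the largest set, 33.8% of peaks had another peak of the list within 10 kb. When regions were joined across gaps of at most 10 kb, 8786 stood alone, 324 pairs formed, 16 stretches held 3 regions, and single stretches held 4 and 5. The stretch of 4, chr16:68536312-68558073, overlapped no gene, and the nearest protein-coding gene, the cell adhesion gene *Cadm2*, was 915 kb away. Every E16.5 heterozygous peak inside this stretch was a kept region. A stretch of 3 at chr10:3527498-3541096 overlapped *Iyd*, which encodes iodotyrosine deiodinase.

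Most genes with many kept regions were long, and they held other E16.5 heterozygous peaks as well. Within a gene or 50 kb on either side, *Lrp1b*, a member of the LDL receptor family, had 23 kept regions among 75 E16.5 heterozygous peaks. The cadherin gene *Cdh18* had 21 of 50 and *Naaladl2* 21 of 63. A second cadherin gene, *Cdh12*, had 17 of 38. The next were *Ralyl* with 12 of 42, the teneurin gene *Tenm3* with 12 of 46, and *Galntl6*, *Grik2* (a kainate-type glutamate receptor), *Hs6st3* (a heparan sulfate sulfotransferase) and *Lingo2* with 11 each. *Epha6* (an ephrin receptor), *Fstl5*, *Lrrc4c*, *Robo1* (an axon guidance receptor) and *Skint6* had 10 each. *Cntnap5a*, *Pcdh9* (a protocadherin) and *Zfhx4* had 9 each, and *Ctnna3* and *Khdrbs2* 8 each. The genes were between 635.7 kb (*Fstl5*) and 2058 kb (*Lrp1b*) long except for *Zfhx4* (197.6 kb), *Skint6* (482.4 kb) and *Khdrbs2* (532.6 kb) among the 20 leading genes. In all 20 the kept share exceeded the 17.7% of the whole list. It ran from 19.3% at *Galntl6* to 52.6% at *Skint6* (10 of 19) and 56.25% at *Zfhx4* (9 of 16), a zinc finger homeobox gene. These genes were ranked by their kept regions, so the shares are a description.

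**Figure D3:**
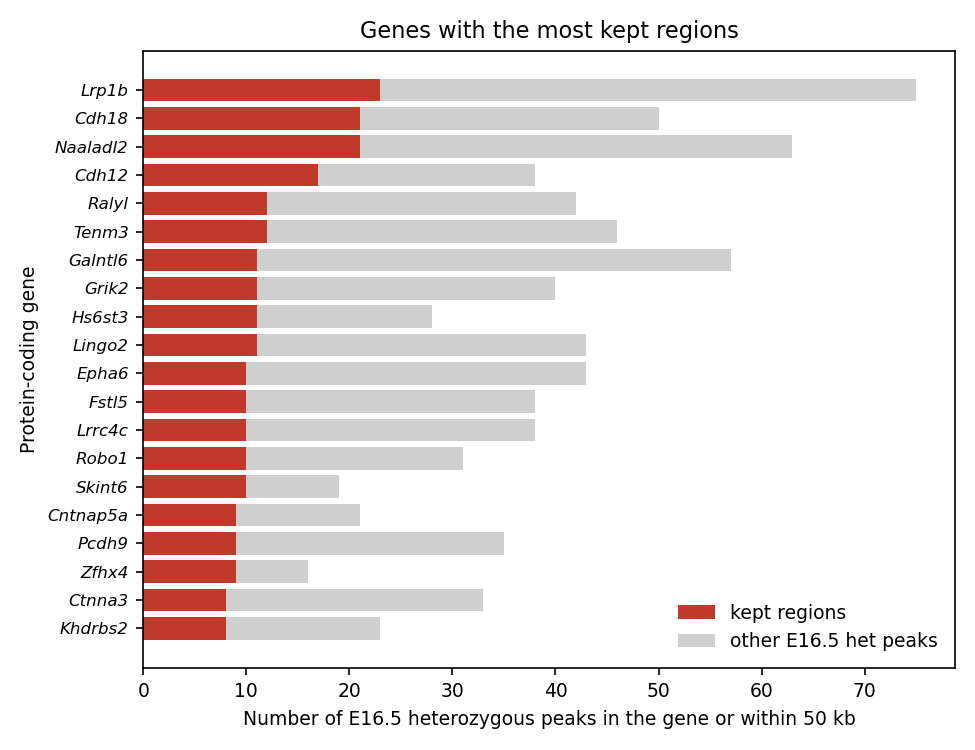
Number of E16.5 heterozygous peaks in or within 50 kb of the 20 protein-coding genes with the most kept regions, split into kept regions and all other peaks. The count of kept regions falls from 23 at Lrp1b to 8 at Ctnna3 and Khdrbs2, while the total ranges from 16 at Zfhx4 to 75 at Lrp1b.

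Of 19471 protein-coding genes of at most 100 kb, 44 held 2 kept regions and 0 held 3 or more. The matching count for all E16.5 heterozygous peaks was not made. Whether kept regions were sparser in short genes than other peaks was therefore not tested. *Akap4*, the X-linked gene of the main scaffold protein of the sperm tail sheath, is 11.1 kb long, and both of its E16.5 heterozygous peaks were kept. Both peaks inside *Aadat*, *Ankmy2*, *Clip3* and *Fam53c* were kept as well. *Cd96* and *Adgrf5* had 2 kept regions among 3 peaks, *Bicra* and *Dlgap3* 2 among 5, and *Cdh19* 2 among 6. The genes named here are the first of the 44 tied genes in order of symbol.

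The kept regions were unevenly spread over chromosomes. Among autosomes, the kept share of E16.5 heterozygous peaks was highest on chromosome 15 (21.7%, 404 of 1859), chromosome 1 (21.0%) and chromosome 3 (20.6%), and lowest on chromosome 19 (11.0%, 101 of 918) and chromosome 11 (7.49%, 134 of 1788). Chromosome 11 was also lowest when kept regions were taken as a share of the P3 peaks of each autosome (6.03%, against 30.1% on chromosome 14). Over the 19 autosomes the kept share and the number of protein-coding genes per Mb had a Spearman correlation of -0.616 and a Pearson correlation of -0.714, given as a description because the chromosomes share the same lists. Chromosomes of similar gene density differed. Chromosome 7 had 13.97 protein-coding genes per Mb and a kept share of 15.3% (interval 14.05 to 16.54), whereas chromosome 11 had 13.2 genes per Mb and 7.49% (interval 6.36 to 8.81).

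**Figure D4:**
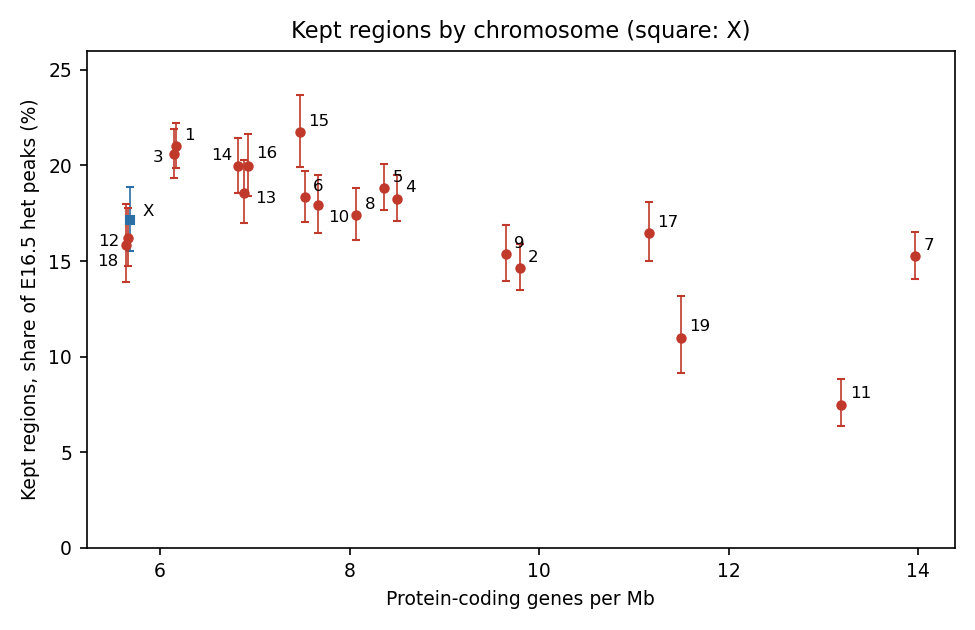
Kept regions as a share (%) of the E16.5 heterozygous peaks of each chromosome, with 95% Wilson intervals, against protein-coding genes per Mb. Circles are autosomes and the square is the X chromosome. Chromosome 11 lies lowest, at 7.49%, and the X chromosome lies at 17.1%.

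Among the kept and transient regions, a smaller share was kept on the X chromosome than on the autosomes. The X chromosome carried 337 kept regions (3.55%, interval 3.20 to 3.94), close to its 3.66% share of the whole E16.5 heterozygous list. It carried 490 of the transient peaks (7.28%, interval 6.68 to 7.93). Of the kept and transient regions together, all of which also overlapped E16.5 knockout and P0 peaks, 40.75% were kept to P3 on the X chromosome (337 of 827, interval 37.5 to 44.1) and 59.5% on autosomes (interval 58.7 to 60.3). The lowest autosome, chromosome 12, stood at 51.5%. The same order was seen over all P0 peaks, of which 34.6% on the X chromosome and 56.7% on autosomes overlapped a P3 peak. The X share of a list went from 2.70% in E13.5 heterozygous cells to 4.51% at P0 and 2.65% at P3. In the earlier step, from E16.5 to P0, X-chromosomal peaks were found again slightly more often than autosomal ones (82.5% and 77.8%). Kept regions formed 28.4% of the P3 peaks on the X chromosome, against 21.2% of the whole P3 list.

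A start site lay inside a kept region for 309 of the 32851 RefSeq promoters, which belonged to 289 genes, 162 protein-coding and 127 of long noncoding RNAs. The 162 were 0.926% of the 17492 protein-coding genes with a promoter sequence. In 266 of the 309 (86.1%) the start was inside the peak of all 4 lists. For 269 of the 289 genes, 148 of them protein-coding, no listed promoter overlapped an E13.5 peak, and for the other 20 genes another promoter did. A kept region overlaps no E13.5 peak by the rule. For genes with a single listed promoter this outcome was therefore largely set by the selection, and the count is a description only. The centre of the kept region lay at a median of 9 bp from the start, downstream, against -12 bp, upstream, for constant promoters.

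Kept promoters, like transient ones, mostly had a CpG observed/expected ratio between 0.2 and 0.6. The ratio was in this band in 66.3% of kept promoters (interval 60.9 to 71.4) and 56.3% of transient promoters (interval 48.3 to 63.95). The share was 18.5% of constant promoters and 35.5% of all promoters. The intervals of kept and transient promoters overlapped. Below 0.4 lay 51.5% of kept, 51.0% of transient, 5.58% of constant and 51.4% of all promoters, so on that limit kept promoters were at the level of all promoters. The ratio was 0.8 or more in 5.18% of kept, 9.27% of transient, 50.2% of constant and 20.9% of all promoters. It was below 0.2 in 14.6%, 16.6%, 0.743% and 28.7%. The median of the kept promoters, 0.397, was the same as that of the transient promoters and near that of all promoters (0.384), whereas constant promoters had 0.801. These ratios correspond to a median of 8 CpGs in 300 bases in kept promoters and 23 in constant promoters. Noncoding RNA promoters were 44.7% of the kept set (interval 39.2 to 50.2), 33.8% of transient, 10.8% of constant and 35.3% of all promoters.

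**Figure D5:**
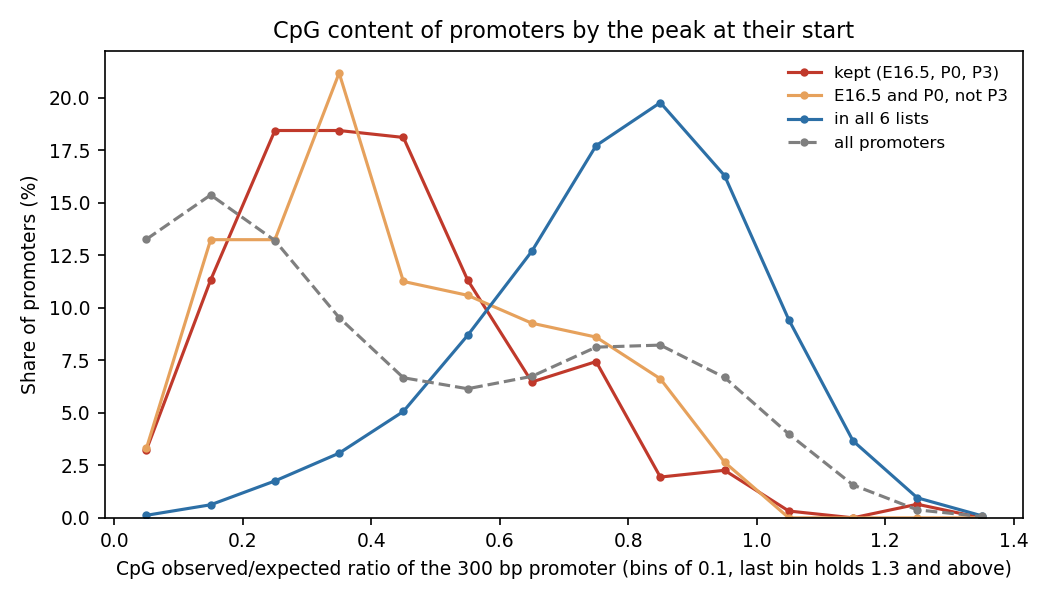
Share of promoters (%) in bins of the CpG observed/expected ratio of 300 bp promoters whose start lay in a kept region, in a transient peak, in a peak of all 6 lists, and of all RefSeq promoters of the table (dashed). Most kept promoters (66.3%) lie between 0.2 and 0.6, to the left of the constant promoters, of which 50.2% reach 0.8 or more.

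Some kept promoters with many CpGs lay beside a region that was already open. In 31 kept promoters an E13.5 peak lay within 1 kb of the kept region. These had a median ratio of 0.651, and 19.4% were below 0.4. In the other 278 the median was 0.379 and 55.0% were below 0.4. The first kind included *Hnrnpa2b1* and *Hnrnpa1*, both RNA-binding protein genes, whose kept regions were 0.038 and 0.085 kb from an E13.5 peak, *Ncoa1* (0.21 kb) and the Argonaute gene *Ago1* (0.303 kb). At these genes the E13.5 lists already held a peak beside the kept start. *Ccnb3* and *Scml1*, on the X chromosome, were different. Their kept promoters had ratios of 0.948 and 0.935, with 18 CpGs each, and the nearest E13.5 peak lay 76.7 and 41.3 kb away.

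Protein-coding promoters on the X chromosome were frequent in the kept set. They were 22 of the 171 protein-coding promoters (12.9%, interval 8.65 to 18.7), against 3.85% of constant and 4.52% of all protein-coding promoters. Transient promoters had 11.0% (interval 6.25 to 18.6). Over all 309 kept promoters the X share was 7.12% (interval 4.75 to 10.5), against 3.72% of all promoters. All 22 starts lay inside the peak of all 4 lists. They included *Rhox10*, *Ccnb3* (a meiotic cyclin), *Scml1* (a Polycomb-like protein of the testis), *Tktl1* (a transketolase-like enzyme), *H2ab2* (a short histone H2A variant of the male germ line), *Eras* (a Ras family protein), *Hsf3* (a heat shock factor), *Tsga8* (a testis-specific gene) and the tumour antigen genes *Prame*, *Ctag2* and *Trap1a*. For *Ctag2*, *H2ab2* and *Tsga8* the nearest E13.5 peak was 770.2, 547.7 and 513 kb away. Only *Cdk16* and *Trap1a* of the 22 genes had one within 1 kb, at 0.154 and 0.584 kb.

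Autosomal kept promoters, named after their values were seen, included other genes known from the germ line. Among them were the testis serine protease genes *Prss21*, *Prss39*, *Prss40* and *Prss41*, the sperm calcineurin subunit gene *Ppp3r2*, the glycerol kinase gene *Gk2*, the axonemal dynein gene *Dnah1*, the synaptonemal complex gene *Sycp2l* and the linker histone gene *H1f1*. The nearest E13.5 peak lay 8.42 kb from the kept region of *Prss21*, 12.1 kb from *Prss39*, 18.3 kb from *Prss40* and 14.3 kb from *Prss41*. It lay 55.5 kb away at *Gk2* and 34.1 kb away at *Sycp2l*. Genes known from other tissues were in the same set, such as *Ttn* of striated muscle, *Pvalb*, *Pklr* of liver and red cells, and *Fgg*, which encodes a fibrinogen chain.

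Letters of 19 short motifs of known factors were searched on both strands of the 300 base promoters, and a match is a description of the sequence only. The letters GGGCGGG of SP factors were found in 19.1% of kept (interval 15.1 to 23.9), 31.1% of transient, 55.0% of constant and 25.6% of all promoters. CCGGAAG of ETS factors was found in 9.06%, 5.30%, 20.2% and 8.86%. The E-box CACGTG was found in 13.3% (interval 9.93 to 17.5), 14.6%, 11.3% and 7.15%, and CCACACCC of KLF factors in 7.12% (interval 4.75 to 10.5), 6.62%, 3.78% and 3.56%. The E-box and KLF shares of kept and transient promoters lay within each other's intervals. Not all 19 motifs are given here, and some were near the level of all promoters. TTGGCA of nuclear factor I was in 15.2% of kept and 14.1% of all promoters, and TACATTG of DMRT factors in 1.62% and 1.85%. Base composition differs between the sets, and the SP, ETS and E-box letters each contain a CpG. Among promoters with a ratio under 0.4 (159 kept, 16883 in all), CCAAT of NFY was in 53.5% of kept and 38.4% of all promoters, the E-box in 10.7% and 3.98%, and AGATAA of GATA factors in 8.18% and 16.1%. In these promoters with a ratio under 0.4 the SP letters were more frequent in the kept set (12.6%, interval 8.29 to 18.6) than among all (5.84%). This was the reverse of the order over promoters of every ratio. The ETS letters were in 6.92% and 1.98%. The sets still differed in CpG content under 0.4: the ratio was below 0.2 in 45 of the 159 kept promoters and in 9412 of the 16883. The shares of SP, ETS and E-box letters there are therefore not matched for CpG content. In the sequences printed above, the *Sohlh1* promoter held the E-box, SP and ETS letters, *Piwil1* those of NFY, SP, KLF and the E-box, *Gtsf1* those of ETS, *Rhox10* those of RFX (GTTGCCA), KLF and SOX (ACAATGG), and *Klf17* those of NFY, KLF and SOX.

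Genes of 12 lists on germ-cell biology were examined for kept regions. Over all protein-coding genes, 24.8% had a kept region inside or within 50 kb, and of the 193 distinct listed genes 52 (26.9%) did. A kept region lay at an end of or inside 6.98% of all protein-coding genes and 22 listed genes (11.4%). Of 142 listed genes with a promoter sequence, the start was in a kept region for *Piwil1*, *Gtsf1* and *Sohlh1*. The share over all protein-coding genes with such a sequence was 0.926%. The listed genes as a whole were therefore near the level of all genes within 50 kb. Distances outside a gene are given below from the centre of the region to the nearer gene end.

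In the piRNA pathway, 5 of 22 genes had a kept region within 50 kb, beside 24.8% of all protein-coding genes. Of 17 with a promoter in the table, 12 were covered in all lists and 2 were kept. Of all protein-coding genes with a promoter in the table, 47.4% were covered in all lists and 0.926% had a kept start. Besides *Piwil1* and *Gtsf1*, *Ddx4*, a DEAD-box helicase gene, had a kept region inside the gene, 35.1 kb downstream of its constant promoter. *Piwil4*, whose product guides DNA methylation of transposons, had one 3.89 kb outside the gene and 0.719 kb from an E13.5 peak, and *Spocd1*, a partner in that process, had one 49.6 kb outside. Of 9 DNA methylation genes, 3 had kept regions within 50 kb, beside the same 24.8%. None of the 9 promoters was kept, a count near the 0.926% of all protein-coding genes. *Dnmt3a*, a de novo methyltransferase gene, had 3 among 13 peaks, of which 2 lay inside the gene, with centres at 26.98 and -41.97 kb from the nearest start (negative values lie upstream). *Tet1*, which encodes an enzyme that oxidises methylated cytosine, had 2 inside the gene, 9.09 and 74.6 kb downstream of its nearest start. *Dnmt3l*, the cofactor of de novo methylation in germ cells, had one 37.6 kb outside the gene.

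Among 16 heterochromatin and MORC genes, 6 had a kept region within 50 kb, beside 24.8% of all protein-coding genes. *Morc1* had one 25.1 kb outside the gene, and *Morc2a* one 34.9 kb outside. *Cbx3* and *Cbx5*, genes of HP1 proteins, had one within 0.16 and 0.291 kb of the gene, each less than 0.1 kb from an E13.5 peak. These are the same kept regions that hold the starts of the neighbouring genes *Hnrnpa2b1* and *Hnrnpa1*, named above. *Trim28*, a corepressor gene, and *Ehmt2*, an H3K9 methyltransferase gene, had one 26.3 and 25.1 kb outside.

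Of all protein-coding genes, 24.8% had a kept region within 50 kb and 6.98% had one at an end or inside. The lists that follow are short and were not tested against these levels. Spermatogonial differentiation genes had kept regions within 50 kb in 6 of 13 cases, 4 of them at an end of or inside the gene. Besides *Sohlh1*, these were *Dmrtb1*, a regulator of the switch from mitosis to meiosis, with 1 inside the gene at -17.2 kb from the nearest start, *Rarg*, a retinoic acid receptor gene, with 1 inside the gene at -0.612 kb from the nearest start, and *Rhox13*, an X-linked homeobox gene, with 1 lying 0.068 kb from an E13.5 peak. Stem cell genes had kept regions in 2 of 18 cases, *Pax7* (2) and *Id4* (1, at 29.7 kb outside the gene). The fetal male fate genes had them in 3 of 17 cases, all outside the genes: *Nanos2* at 49.75 kb, and *Lefty1* and *Lefty2*, which share 1 region. Cell-cycle arrest genes had them in 7 of 20 cases, none at an end of or inside the gene. *Cdkn2c* and *Ccne1* had 2 each. Of these 3 stage-related lists, with 9, 11 and 14 promoters in the table, none had a kept promoter. The share over all protein-coding genes with a promoter sequence was 0.926%. In lists this short, counts of 0 are near that level.

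For the remaining lists the level of all protein-coding genes within 50 kb was again 24.8%, and no list was tested against it. In the pluripotency list 5 of 18 genes had a kept region within 50 kb, with those of *Klf5* and *Tbx3* inside the gene. Among meiosis genes, 2 of 19 did, *Spo11*, which makes the DNA breaks of meiosis, and the recombinase gene *Dmc1*, and 13 of 16 with a promoter in the table were covered in all lists, beside the 47.4% of all protein-coding genes. The primordial germ cell list had 1 of 12, the *Ddx4* region named above. Testis somatic genes had 8 of 22, *Cldn11* and *Myh11* with 1 inside the gene each. Transcription factor genes of the nuclear factor I, RFX, DMRT and SOX families had 6 of 18. *Nfia* had 3 kept regions inside the gene among 15 peaks, at 48.2, 81.1 and 125.8 kb downstream of the nearest start, and the first of them was 0.501 kb from an E13.5 peak. *Sox5* and *Sox6* had 2 inside the gene each, and *Nfix* had 1. The kept region of *Nfic*, with its centre 1.15 kb outside the gene, reached the window at the gene end.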

How the data were processed

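The deposited files are 8 peak lists, 1 per stage and genotype, with 3 columns (chromosome, start, end) and no height, score or p-value. The submitters' processing notes name bcl2fastq 2.20, cutadapt 1.18, Bowtie2 2.3.4.1, deepTools 3.5.0 and HOMER 4.10 and the build mm10. The calling threshold and the way replicates entered peak calling are not given in the sources used here, and the read depth is unknown. Starts were read as counted from 0 and are written counted from 1.

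Groups came from the sample titles. Kept regions were found by interval overlap and compared with transient and constant peaks as shares with 95% Wilson intervals, with no test. The members and gene lists were chosen with earlier results of these data known. Named were listed genes with a kept region at an end or inside, the 20 genes with the most kept regions, the longest stretches (the position of 1 is not reported here) and kept promoters of listed genes. Listed genes whose kept region lay outside the gene, and other kept promoters, were named after their values were seen. Genes (49997 with a position, 21900 protein-coding) and promoters came from RefSeq GRCm38.p6. The promoter table held no entry for many genes, and these were left out of promoter counts and of distances to starts. Overlaps were checked against bedtools 2.31.1, which also gave 9491 regions, and on simulated lists, where 4000 of 4000 planted regions among 20000 peaks were found. Python 3.11.15, numpy 2.4.6, scipy 1.17.1 and matplotlib 3.10.9 were used. Alternatives were a reciprocal overlap of 50%, a gap of 500 bp, other required lists, other windows and protein-coding genes only.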

Additional observations from a re-analysis of the deposited data

How the results depend on the processing

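The number of kept regions, 9491, was 8607 with a reciprocal overlap of 50%, 9725 with peaks within 500 bp counted as shared, 10583 without requiring the E16.5 knockout list and 10541 without excluding the E13.5 knockout list. Of the 9491, 88.9% were also found with the reciprocal overlap and 98.2% with the 500 bp gap. The share at gene ends (11.5%) was 12.6% without excluding the E13.5 knockout list, 9.21% with a window of 500 bp and 4.11% with protein-coding genes only. The share between genes (64.99%) was 62.98%, 66.1% and 77.3% under the same settings. The order of kept and transient regions in the share between genes turned with protein-coding genes only (77.3% and 76.5%). The share with a neighbouring kept region (7.43%) was 6.69% with the reciprocal overlap, 8.08% without the E16.5 knockout list and 0.464% for a neighbour within 5 kb. Of the listed genes, 34 instead of 52 had a kept region within 20 kb instead of 50 kb. The share on the X chromosome stayed within its interval under each overlap and list setting. Counting any overlap with the promoter window, an alternative chosen after seeing the data, gave 348 kept promoters and 6.61% on the X chromosome. The cause of these shifts was not tested beyond what each setting changes by construction.

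No paired analysis was possible because the lists carry no value per sample, so none was left out either. The planned motif search in the centres of peaks was not run, since no genome sequence was used here. Depth and calling threshold, both unknown, limit every statement that a region was absent from a list.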

Other observations

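Among 1005 RefSeq miRNA hairpins, 53 overlapped a peak of the E16.5 heterozygous list, and 5 of these (9.43%, where 17.7% of all peaks of the list were kept regions) overlapped a kept region: *Mir344b*, *Mir344g*, *Mir5099*, *Mir6244* and *Mir760*. They were named after their values were seen, and no mature miRNA was measured here.

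Kept regions also lay at the starts of genes that belong to neighbouring or related copies. *Trim60* and *Trim61* share a start in 1 kept region, with the nearest E13.5 peak 3.59 kb away, and *Lypd5*, *Lypd9* and *Lypd10* had starts in kept regions with the nearest E13.5 peak 9.67, 7.83 and 26.6 kb away. The placement of reads from similar copies is not given in the sources used here, so these promoters are uncertain.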
